A study of Sus scrofa with 11 samples.

Results

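Interferon-stimulated genes are the genes that cells switch on after interferon binds its receptors. Their levels were read from the carotid arteries of pigs (Sus scrofa) which had received an inhibitor of the phosphatase SHP-1 on a nanoparticle carrier, or the carrier alone. The set was chosen as 39 gene names, of which DDX58 and RIGI are an older and a newer name of one gene, and each name was looked up in the gene name column of the count table. This found 36 of the 38 genes, out of 35670 genes in the table, with a single row for each name. GBP2 and BST2 have rows without a symbol that a table of gene identifiers pairs with these names. Their values are given as an addition and enter no count below unless stated. Of the 36 genes, 35 had enough reads to be tested, and OASL did not.

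Treated pigs received SWNT-SHP1i, single-walled carbon nanotubes carrying the SHP-1 inhibitor, and the controls received the empty nanotubes (SWNT). Both were infused into a vein every week at 400 nM under anaesthesia, and all animals ate a Western diet rich in fat and calories over 12 weeks. RNA of carotid artery was poly-A selected and sequenced, with 5 libraries in each group and 1 animal per library. SWNT-SHP1i replicate 4 is labelled as an animal lost before harvest and was not analysed here, and the labels name no strain, sex or age. Replicate numbers follow the order of the records and pair no animals. By its description the treatment was meant to act in macrophages and was judged on inflammation and on anaemia, but the libraries are of bulk tissue.

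Interferons of type I and type III act through receptors coupled to the kinases JAK1 and TYK2, which phosphorylate STAT2 among other targets. STAT2 joins IRF9 in a complex that binds promoters of interferon-stimulated genes, while interferon gamma uses a receptor of its own and induces IRF1 and the guanylate-binding proteins. The induced proteins detect viral RNA (the RIG-I-like receptors and OAS enzymes), block its translation (IFIT proteins, the kinase encoded by EIF2AK2), trap particles (MX proteins, BST2) or tune the response (USP18, ISG15). Low expression in uninfected tissue is common. SHP-1, the product of PTPN6, is known from human and mouse cells to remove phosphate from JAK-STAT components among its targets.

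Total counts ran from 27593564 to 39413481 in SWNT-SHP1i libraries and from 32931527 to 47718854 in SWNT libraries, and the 35 tested genes took 0.12% to 0.193% of the counts in SWNT-SHP1i libraries and 0.114% to 0.148% in SWNT libraries. Smooth muscle genes marked every library as artery wall, since 12 contractile markers summed to 20000 to 53100 CPM (counts scaled to library size, with TMM correction for composition) in SWNT-SHP1i libraries and to 43100 to 63800 CPM in SWNT libraries. SWNT-SHP1i replicates 3 and 6 stood apart from the other libraries. Replicate 6 held the lowest or the highest value of the 10 libraries for 30.7% and 29.4% of the 15930 genes tested, and replicate 3 for 24% and 14.1%. Results are therefore also given without them.

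No interferon-stimulated gene passed the test between the groups, but most were on the higher side in SWNT-SHP1i artery. Of the 35 tested genes, 31 had a positive fold change and 4 a negative one, with a median log2 fold change of 0.29 (range -0.24 to 1.04). Among all 15930 genes tested, 50.8% were positive and the median was 0.01. OAS1 and OAS2, which make an oligoadenylate messenger on double-stranded RNA, and IFIT3, a partner of IFIT1 in binding foreign RNA, had the smallest p. The quasi-likelihood test of edgeR with Benjamini-Hochberg adjustment over all genes called 0 of the 35 genes and 0 of 15930 genes in all (0%), with adjusted p of 0.997 to 1 over these members. DESeq2 and limma-voom also called 0. At an unadjusted p under 0.05, edgeR gave 7 of the 35 members, or 20%, all of them with positive fold changes, where the share over all genes was 3.49% on the higher side and 1.15% on the lower side (739 genes, or 4.64%, in both directions).

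The level of the 35 genes in a library, the mean over genes of log2 CPM minus that gene's mean over the 10 libraries, was 0.33, 0.36, 0.58, -0.27 and -0.31 in SWNT-SHP1i replicates 1, 2, 3, 5 and 6, and -0.18, -0.21, -0.22, -0.11 and 0.03 in SWNT replicates 1 to 5. The SWNT-SHP1i libraries lay on both sides of the SWNT range: replicates 1, 2 and 3 were above it, and replicates 5 and 6 below it. With the median over genes in place of the mean, replicate 5 (-0.14) was inside the SWNT range of -0.24 to 0.02 and replicate 6 (-0.27) below it. The group means were 0.14 ± 0.40 in SWNT-SHP1i and -0.14 ± 0.10 in SWNT (SD, n = 5 each). The median fold change of the list was 0.21 without SWNT-SHP1i replicate 3, 0.45 without SWNT-SHP1i replicate 6, and 0.32 without both. Replicate 3 of each group comes from animals numbered in another range than the rest (B9), and among the B9 animals alone the median was 0.22, with 29 of 35 genes positive.

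**Figure D1:**
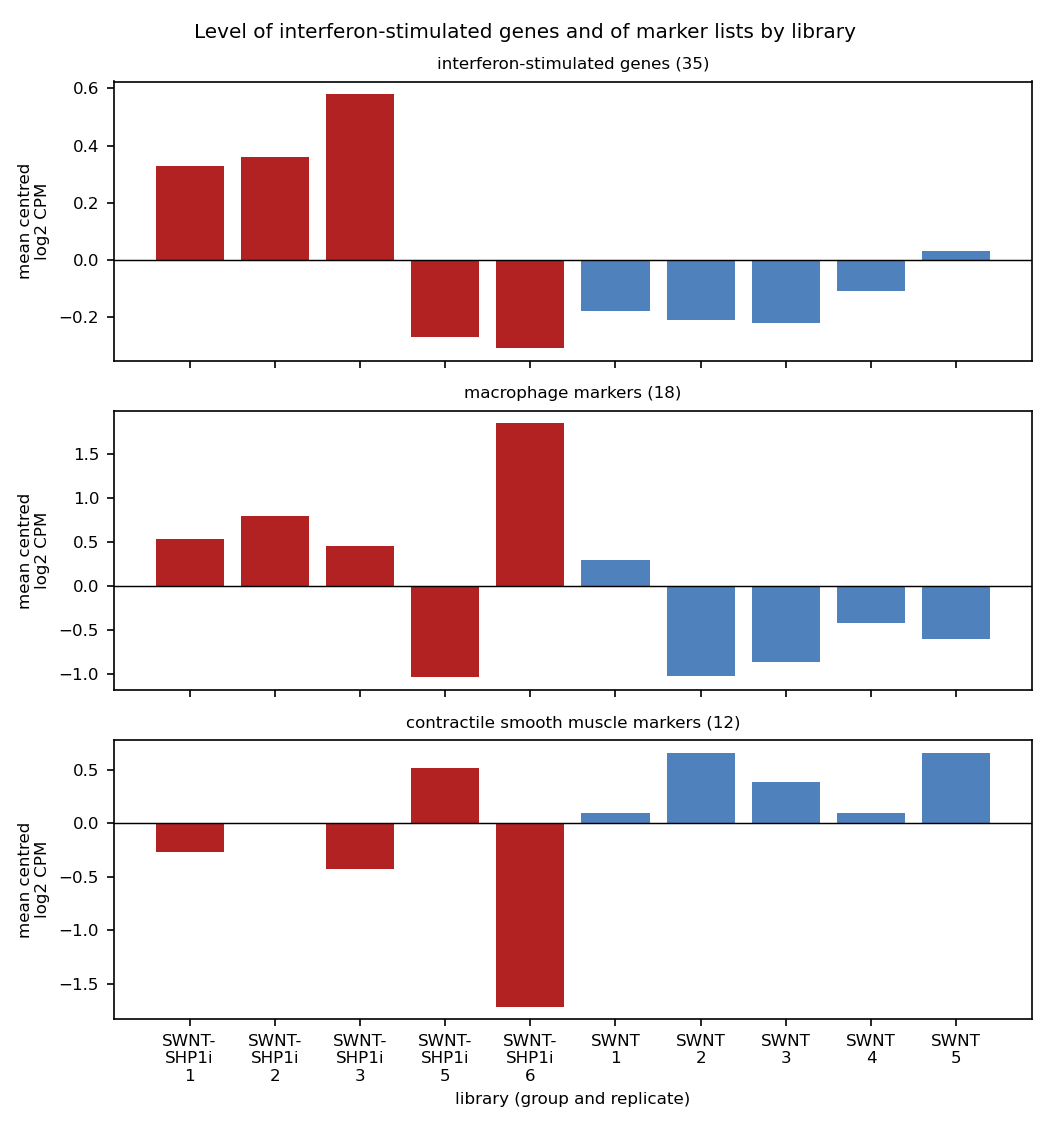
Mean centred log2 CPM in each library (bars; SWNT-SHP1i in red, SWNT in blue) of 35 interferon-stimulated genes, 18 macrophage markers and 12 contractile smooth muscle markers; each panel has its own vertical scale. Interferon-stimulated genes are high in SWNT-SHP1i replicates 1, 2 and 3 (0.33 to 0.58) and low in replicates 5 and 6 (-0.27 and -0.31), while macrophage markers are highest in replicate 6 (1.85).

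Markers of several cell types differed between the libraries as well. Of 20 macrophage markers listed 18 were found, and 17 of these had a positive fold change, with a median log2 fold change of 1.12. Their summed level was 2570, 2940, 3270, 1040 and 6890 CPM in SWNT-SHP1i replicates 1, 2, 3, 5 and 6, and 1150 to 2860 CPM in the SWNT libraries. CD74 alone gave 4210 of the 6890 CPM in SWNT-SHP1i replicate 6, and 2110 of the 2610 CPM in SWNT replicate 3. The mean centred level, which weighs the genes alike, was 0.53, 0.80, 0.45, -1.04 and 1.85 in SWNT-SHP1i replicates 1, 2, 3, 5 and 6. In the SWNT libraries it ran from -1.02 to 0.30, with SWNT replicate 3 at -0.86. MARCO, a scavenger receptor of some macrophages, was at 0 in 3 libraries, and the other markers were detected in all 10. Markers of plasmacytoid dendritic cells, which are the body's main makers of type I interferon, were positive in 6 of 6 tested genes, summed to 32.5 to 139 CPM in SWNT-SHP1i and 30.3 to 56.9 CPM in SWNT libraries, and include genes such as TLR7 and IRF8 that other leukocytes also express. The defining marker CLEC4C was not matched, and GZMB was at 0 in 4 libraries. T and NK cell markers summed to 23.3 to 217 CPM in SWNT-SHP1i and to 23.2 to 86.6 CPM in SWNT libraries. NKG7 alone gave 123 of the 217 CPM in replicate 6. Neutrophil markers summed to 1.59 to 314 CPM in SWNT-SHP1i and to 3.39 to 9.13 CPM in SWNT libraries. MMP9 alone gave 221 of the 314 CPM in replicate 6. In each of these 4 lists replicate 6 was the highest library. Its interferon-stimulated gene level was the lowest by the mean (-0.31, against -0.27 in SWNT-SHP1i replicate 5). By mean rank over the genes, where a larger rank is a lower level, it was not the lowest (6.6, against 7.1 in SWNT-SHP1i replicate 5). Fibroblast markers were positive in 10 of 10 genes (median log2 fold change 0.40), with mean centred levels of 0.53, 0.57, 0.35, -0.01 and 0.40 in SWNT-SHP1i replicates 1, 2, 3, 5 and 6, and of 0.30, -0.39, -0.97, -0.06 and -0.71 in SWNT replicates 1 to 5. Endothelial markers were positive in 8 of 10 genes and summed to 857 to 2700 CPM in SWNT-SHP1i and 648 to 2030 CPM in SWNT libraries. B and plasma cell markers were positive in 3 of 8 genes and summed to 225 to 318 CPM in SWNT-SHP1i and 198 to 360 CPM in SWNT libraries. Contractile smooth muscle markers were positive in 0 of 12 genes (median log2 fold change -0.57) and lowest in replicate 6. The part of these cells in the results was not tested. In bulk tissue, fewer cells of a type and less RNA per cell cannot be told apart.

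Counted gene by gene, SWNT-SHP1i libraries often lay above the whole SWNT group without all 5 doing so. At least 3 of the 5 SWNT-SHP1i libraries exceeded every SWNT library in 20 of 35 genes (57.1%, against 10.7% of all genes tested), and 4 of them did so in 7 genes (20%, against 2.64% of all genes with at least 4): OAS1, OAS2, IFIT3, IFI44L, IRF7, IRF9 and DHX58. The groups were fully separate in 0 of 35 genes, where 0.0816% of all genes were separate with SWNT-SHP1i higher and 0.276% with SWNT-SHP1i lower. At least 3 SWNT-SHP1i libraries lay below every SWNT library in 0 genes of the set. In 19 genes (54.3%, against 45.6% of all genes) at least 1 SWNT-SHP1i library was above and at least 1 below the whole SWNT group.

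By library, replicate 1 exceeded every SWNT library in 23 of the 35 genes, replicate 2 in 25, replicate 3 in 24, replicate 5 in 2 and replicate 6 in 11. Over all genes tested the shares were 18.2%, 14.8%, 25.2%, 20% and 34.2% in that order of replicates. Libraries below every SWNT library were seen in 1 gene for replicate 1, 0 for replicate 2, 2 for replicate 3, 6 for replicate 5 and 14 for replicate 6, and over all genes tested the shares were 16.6%, 14.5%, 33.4%, 17.6% and 38.6%. As a background to the order of the libraries, the share of all genes in which a library was the highest of 10 was 6.76%, 3.87%, 14.1%, 14.2% and 29.4% in replicates 1, 2, 3, 5 and 6, and the share in which it was the lowest was 4.91%, 3.08%, 24%, 10.5% and 30.7%. Replicate 3 was the highest of the 10 libraries in 20 genes, among them ISG15, MX1, MX2, OAS1, OAS2 and IFI44. Replicate 2 led in RSAD2, SAMD9, PARP9, DTX3L and ZBP1, and replicate 1 in IFIT1, IFIT2, IFIT5 and PARP14. Replicate 6 lay below every SWNT library in 14 genes (40%, against 38.6% of all genes) and above every SWNT library in 11 (31.4%, against 34.2%), so both shares were near those of all genes in that library. Its 14 low genes included IFIT1, IFIT2, IFIT5, RSAD2, DDX58, IFIH1 and EIF2AK2, and its 11 high ones IRF7, IFI35, IFI6, ISG15 and IFIT3. The standard deviation of the 35 centred values was 0.91 within replicate 6 and 0.24 to 0.46 within each of the other libraries. Replicate 5 lay below every SWNT library in ISG15, IFI35, IRF7, GBP1, XAF1 and PARP14, which is 17.1% of the set, near its 17.6% of all genes, and above every SWNT library in 2 genes, against 20% of all genes.

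**Figure D2:**
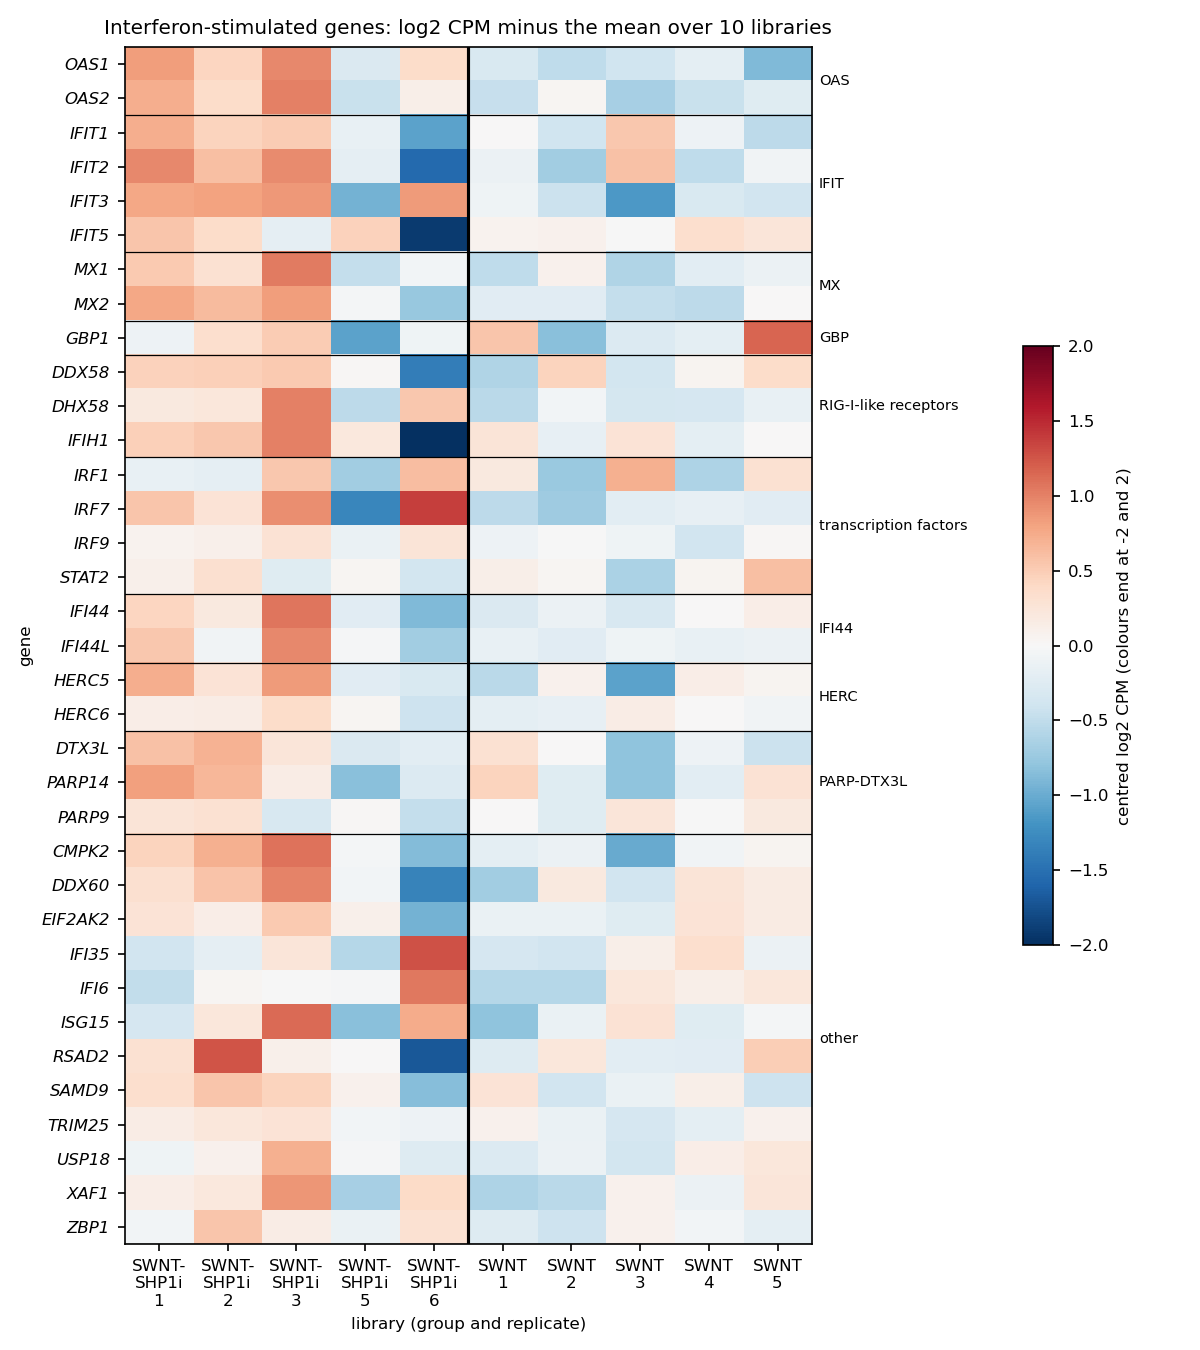
Centred log2 CPM (colour; red above, blue below the gene's mean over 10 libraries) of 35 interferon-stimulated genes in rows, by family, and libraries in columns, with SWNT-SHP1i left of the line. SWNT-SHP1i replicates 1 to 3 are red in most rows, and replicate 6 runs from 1.38 (IRF7) to -2.38 (IFIH1).

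The OAS family makes 2'-5'-linked oligoadenylate when it meets double-stranded RNA. OAS1 had 57.1, 43.2, 62.4, 26.1 and 41.5 CPM in SWNT-SHP1i replicates 1, 2, 3, 5 and 6, and 25.7, 22.5, 24.3, 27.9 and 17.3 CPM in SWNT replicates 1 to 5. OAS1 was above every SWNT library in 4 of the SWNT-SHP1i libraries, and replicate 5 lay inside the SWNT range. In edgeR OAS1 had a log2 fold change of 0.97 ± 0.24 (SE; 95% interval 0.44 to 1.5; unadjusted p = 0.00176, adjusted p = 0.997). OAS2 had 156, 122, 191, 69.5 and 103 CPM in SWNT-SHP1i replicates 1, 2, 3, 5 and 6, and 68.5, 97.1, 59.6, 69.4 and 79.3 CPM in SWNT replicates 1 to 5. The order was the same at the top, with replicate 3 first and replicate 1 second, and again replicate 5 lay inside the SWNT range. In edgeR OAS2 had a log2 fold change of 0.78 ± 0.26 (SE; 95% interval 0.21 to 1.35; unadjusted p = 0.0114, adjusted p = 0.997). An exact two-sided permutation test over the 252 assignments of the libraries gave an unadjusted p = 0.0159 for OAS1, p = 0.0317 for OAS2 and p = 0.0397 for IFIT3, but these 3 members were picked by their small p in the same libraries, so it adds no support. Without 1 library at a time OAS1 ran from 0.83 to 1.11 and OAS2 from 0.59 to 0.93. OASL, the catalytically inactive relative in human, had 4, 2, 0, 2 and 24 counts in SWNT-SHP1i replicates 1, 2, 3, 5 and 6, and 2, 0, 0, 4 and 2 counts in SWNT replicates 1 to 5. It was near the limit of detection outside replicate 6 and was not tested. On the file's build, Sscrofa11.1, OAS1 (chr14:38851918-38859409) lies inside the span of OAS2 (chr14:38827660-38860820) on the same strand without sharing exon bases.

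IFIT proteins bind viral RNA that lacks the host cap methylation, and their genes stand side by side on chromosome 14 (IFIT2, IFIT3, IFIT1 and IFIT5, from 101193419 to 101267067, plus strand). The libraries stood in another order for IFIT3 than for its neighbours. IFIT3 had 26, 26.4, 27.8, 7.91 and 27.5 CPM in SWNT-SHP1i replicates 1, 2, 3, 5 and 6, and 14.3, 11.3, 6.83, 12.2 and 11.7 CPM in SWNT replicates 1 to 5. IFIT3 was about level in 4 SWNT-SHP1i libraries, all above the SWNT group, and low in replicate 5. In edgeR IFIT3 had a log2 fold change of 1.04 ± 0.33 (SE; 95% interval 0.32 to 1.76; unadjusted p = 0.0086, adjusted p = 0.997). IFIT1 had 42.4, 35.2, 36.6, 23.2 and 12.2 CPM in SWNT-SHP1i replicates 1, 2, 3, 5 and 6, and 25.8, 19.5, 37.4, 24 and 17.9 CPM in SWNT replicates 1 to 5. Replicate 6 was the lowest of all libraries, and the groups overlapped. IFIT1 had a log2 fold change of 0.26 ± 0.32 (SE; 95% interval -0.44 to 0.97; edgeR adjusted p = 0.997). IFIT2 had 19.9, 15.6, 19.9, 9.05 and 3.45 CPM in SWNT-SHP1i replicates 1, 2, 3, 5 and 6, and 9.51, 6.31, 15.5, 7.2 and 9.76 CPM in SWNT replicates 1 to 5. Replicates 1, 2 and 3 were above the SWNT group, by less in replicate 2, and replicate 6 was again the lowest. IFIT2 differed by 0.49 ± 0.43 on the log2 scale (SE; 95% interval -0.44 to 1.43), with an edgeR adjusted p = 0.997. IFIT5 had 39.7, 35, 23.9, 37.4 and 7.2 CPM in SWNT-SHP1i replicates 1, 2, 3, 5 and 6, and 28.5, 28.6, 27.1, 34.4 and 32 CPM in SWNT replicates 1 to 5. IFIT5 was nearly constant in SWNT artery, so that 3 SWNT-SHP1i libraries lay above that narrow range and 2 below it. IFIT5 had a log2 fold change of -0.07 ± 0.36 (SE; 95% interval -0.85 to 0.7; edgeR adjusted p = 0.998). Replicate 6 thus held the lowest value of the 10 libraries for IFIT1, IFIT2 and IFIT5 but 27.5 CPM of IFIT3, whose gene lies between those of IFIT2 and IFIT1. Without replicate 6 the fold changes were 0.46 for IFIT1, 0.74 for IFIT2, 0.97 for IFIT3 and 0.17 for IFIT5.

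Guanylate-binding proteins are large GTPases that attack vacuoles of intracellular microbes and are induced above all by interferon gamma. GBP1 had 48.3, 65.6, 73.5, 24.6 and 49 CPM in SWNT-SHP1i replicates 1, 2, 3, 5 and 6, and 75.4, 29, 42.6, 45 and 116 CPM in SWNT replicates 1 to 5. SWNT replicate 5 was the highest and SWNT-SHP1i replicate 5 the lowest, and the groups overlapped. GBP1 differed by -0.24 ± 0.38 on the log2 scale (SE; 95% interval -1.06 to 0.59), with an edgeR adjusted p = 0.997. Without SWNT replicate 5 it was 0.12. GBP2 had 12.5, 13.9, 30.3, 14.1 and 17.6 CPM in SWNT-SHP1i replicates 1, 2, 3, 5 and 6, and 16.1, 12.2, 20.1, 15.7 and 23 CPM in SWNT replicates 1 to 5. SWNT-SHP1i replicate 3 was the highest and the rest overlapped. GBP2 had a log2 fold change of 0.02 ± 0.28 (SE; 95% interval -0.59 to 0.63; edgeR adjusted p = 1). GBP1 had the most negative fold change of the set, and in contrast with the OAS genes 0 SWNT-SHP1i libraries lay above its SWNT range. Over the tested members of each family, the median log2 fold change was 0.87 for OAS (2 genes), 0.38 for IFIT (4 genes) and -0.11 for GBP with GBP2 (2 genes). GBP5, which is outside the set and had 0.708 to 2.99 CPM, had a positive log2 fold change of 0.41 ± 0.52 (SE; edgeR adjusted p = 0.997). By mean centred log2 CPM the libraries stood in a different order in each family: SWNT-SHP1i replicate 3 was first in OAS (0.99), replicate 1 in IFIT (0.75) and SWNT replicate 5 in GBP (0.80). Differences between families were not tested.

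**Figure D3:**
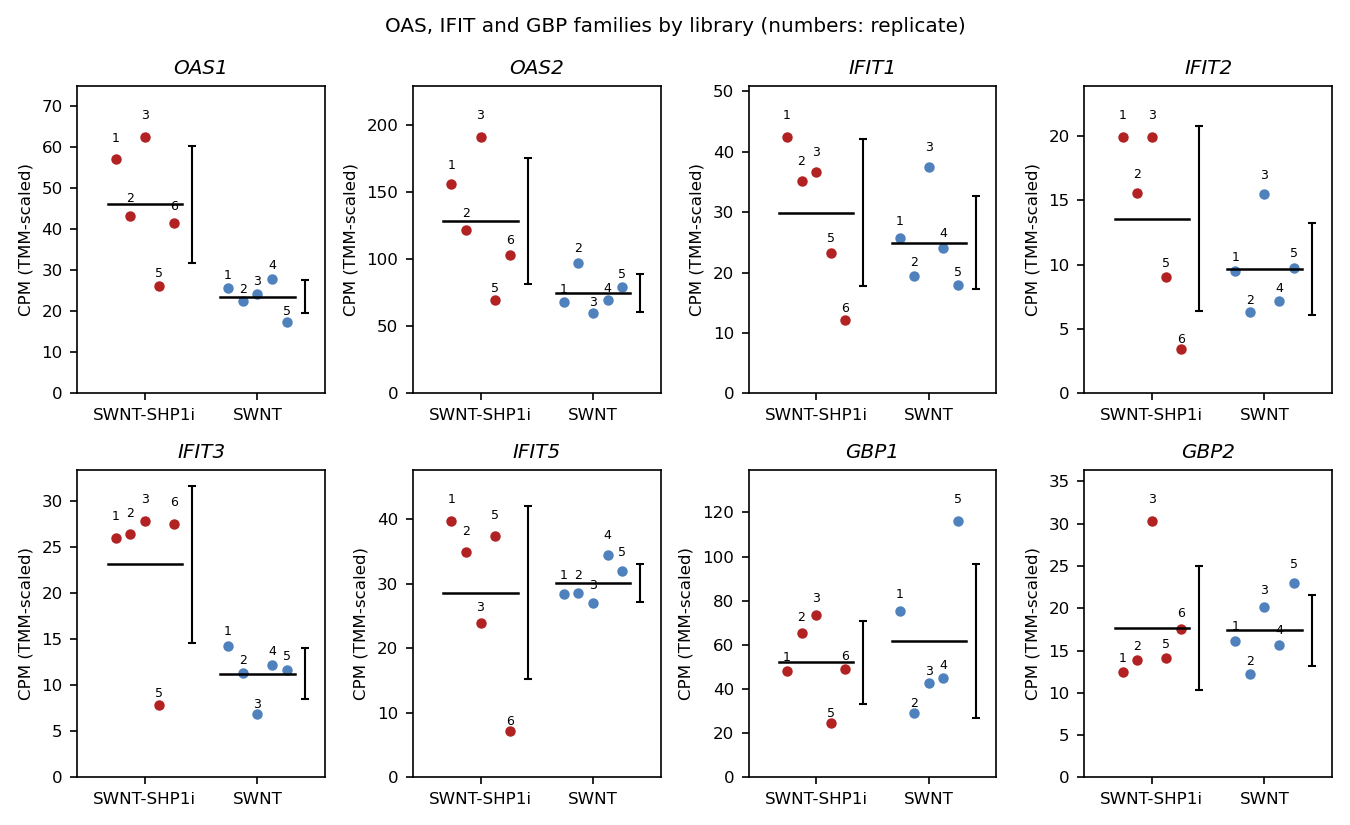
CPM (TMM-scaled, axis from 0) of 2 OAS, 4 IFIT and 2 GBP genes in each library; points carry the replicate number, lines are group means and bars beside them are ± SD (n = 5). OAS1, OAS2 and IFIT3 have 4 SWNT-SHP1i points above all SWNT points, while IFIT1, IFIT2 and IFIT5 have replicate 6 at the bottom and the groups overlap in GBP1 and GBP2, apart from replicate 5 below the SWNT points of GBP1 and replicate 3 above those of GBP2.

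MX1 and MX2 encode dynamin-like GTPases that trap viral nucleocapsids and lie next to each other on chromosome 13. MX1 had 138, 119, 198, 69.6 and 92.7 CPM in SWNT-SHP1i replicates 1, 2, 3, 5 and 6, and 67.7, 102, 63.5, 83.3 and 88.5 CPM in SWNT replicates 1 to 5. SWNT-SHP1i replicates 1 to 3 were above the SWNT group, and replicates 5 and 6 were within it. In edgeR MX1 had a log2 fold change of 0.61 ± 0.27 (SE; 95% interval 0.02 to 1.19; unadjusted p = 0.0432, adjusted p = 0.997). MX2 had 56.6, 51.3, 59.4, 32.3 and 19.6 CPM in SWNT-SHP1i replicates 1, 2, 3, 5 and 6, and 28.6, 28.3, 23.7, 23.1 and 33.5 CPM in SWNT replicates 1 to 5. MX2 had the same 3 libraries on top in the same order, but replicate 6 was the lowest of all 10. In edgeR MX2 had a log2 fold change of 0.68 ± 0.28 (SE; 95% interval 0.06 to 1.29; unadjusted p = 0.034, adjusted p = 0.997).

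The RIG-I-like receptors are helicases that sense viral RNA in the cytosol. DHX58 had 20.4, 21, 35.8, 12.5 and 26.2 CPM in SWNT-SHP1i replicates 1, 2, 3, 5 and 6, and 12.3, 17.3, 14, 14.1 and 16.1 CPM in SWNT replicates 1 to 5. DHX58, which encodes LGP2, a regulator of the other receptors, was above the SWNT group in 4 SWNT-SHP1i libraries. In edgeR DHX58 had a log2 fold change of 0.65 ± 0.26 (SE; 95% interval 0.08 to 1.22; unadjusted p = 0.0296, adjusted p = 0.997). IFIH1 had 18.3, 19.2, 26.4, 15.3 and 2.5 CPM in SWNT-SHP1i replicates 1, 2, 3, 5 and 6, and 15.7, 11.8, 16, 11.5 and 13.3 CPM in SWNT replicates 1 to 5. IFIH1, which encodes MDA5, the sensor of long double-stranded RNA, was far lower in replicate 6 than in any other library, and its highest value was 10.6 times its lowest. IFIH1 had a log2 fold change of 0.26 ± 0.44 (SE; 95% interval -0.7 to 1.21; edgeR adjusted p = 0.997). DDX58 had 34.1, 34.2, 35.4, 25.1 and 9.48 CPM in SWNT-SHP1i replicates 1, 2, 3, 5 and 6, and 16.3, 33.6, 19.3, 25.8 and 31.8 CPM in SWNT replicates 1 to 5. RIG-I itself had replicate 6 lowest and replicates 1 to 3 just above the top of the SWNT range. DDX58 differed by 0.13 ± 0.34 on the log2 scale (SE; 95% interval -0.61 to 0.86), with an edgeR adjusted p = 0.997. Without replicate 6 the fold changes were 0.60 for DHX58, 0.53 for IFIH1 and 0.34 for DDX58.

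Among the transcription factors, IRF7 is the factor that amplifies type I interferon production. IRF7 had 27.4, 22.7, 35.4, 7.49 and 48.6 CPM in SWNT-SHP1i replicates 1, 2, 3, 5 and 6, and 13, 11.3, 16, 16.5 and 15.9 CPM in SWNT replicates 1 to 5. It was above the SWNT group in 4 SWNT-SHP1i libraries, with replicate 6 the highest, and below it in replicate 5. In edgeR IRF7 had a log2 fold change of 0.96 ± 0.38 (SE; 95% interval 0.13 to 1.79; unadjusted p = 0.0266, adjusted p = 0.997). Without replicate 6 it was 0.68. IRF9, which gives the STAT complex its DNA contact, varied little: it averaged 6.35 ± 0.17 log2 CPM in SWNT-SHP1i and 6.12 ± 0.16 in SWNT (SD, n = 5 each; log2 fold change 0.23 ± 0.16, SE). STAT2 had 63.3, 74, 49.7, 60.8 and 45.7 CPM in SWNT-SHP1i replicates 1, 2, 3, 5 and 6, and 63.7, 60.7, 38.1, 61.5 and 89.8 CPM in SWNT replicates 1 to 5. All SWNT-SHP1i values of STAT2, the partner of IRF9, lay inside the SWNT range. STAT2 differed by -0.10 ± 0.23 on the log2 scale (SE; 95% interval -0.6 to 0.4), with an edgeR adjusted p = 0.997. STAT2 shares 595 of its 5636 exon bases (10.6%) with IL23A on the opposite strand, and since the strand setting of the counts is unknown, reads there cannot be assigned with certainty. IRF1 had 43.7, 42.8, 70.5, 29.8 and 74 CPM in SWNT-SHP1i replicates 1, 2, 3, 5 and 6, and 55.2, 28.8, 79.2, 31.6 and 59.9 CPM in SWNT replicates 1 to 5. IRF1, a factor that interferon gamma induces strongly, stayed within the SWNT range in all SWNT-SHP1i libraries. IRF1 had a log2 fold change of 0.03 ± 0.33 (SE; 95% interval -0.68 to 0.74; edgeR adjusted p = 1).

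The PARP9-DTX3L pair forms a ubiquitin ligase complex with ADP-ribosylating activity, and PARP14, a relative of PARP9, lies in the same region of chromosome 13. PARP9 had 20.9, 21.6, 14, 17.8 and 12.6 CPM in SWNT-SHP1i replicates 1, 2, 3, 5 and 6, and 17.6, 14.7, 20.6, 17.4 and 20.1 CPM in SWNT replicates 1 to 5. SWNT-SHP1i libraries lay on both sides of the narrow SWNT range. PARP9 differed by -0.06 ± 0.22 on the log2 scale (SE; 95% interval -0.52 to 0.41), with an edgeR adjusted p = 0.997. On the log2 scale DTX3L differed by 0.42 ± 0.29 and PARP14 by 0.27 ± 0.35 (SE), and in both replicates 1 and 2 were the only libraries above the SWNT group. PARP9 and DTX3L stand on opposite strands, 5219 bases apart. HERC5 had 17.9, 13.1, 19.5, 9.2 and 8.73 CPM in SWNT-SHP1i replicates 1, 2, 3, 5 and 6, and 7.38, 11.5, 5.11, 11.8 and 11.2 CPM in SWNT replicates 1 to 5. Replicates 1, 2 and 3 were above the SWNT group, and SWNT replicate 3 was the lowest. HERC5, the ligase that attaches ISG15 to new proteins in human cells, and its neighbour HERC6 had log2 fold changes of 0.54 ± 0.32 and 0.12 ± 0.18 (SE). IFI44 and IFI44L, adjacent genes with less settled functions, had 0.37 ± 0.31 and 0.39 ± 0.27. IFI44L had 85.9, 56.2, 115, 57.8 and 36.6 CPM in SWNT-SHP1i replicates 1, 2, 3, 5 and 6, and 53.2, 50.5, 55.9, 53.1 and 54.8 CPM in SWNT replicates 1 to 5. The SWNT values of IFI44L spanned a narrow range, with 4 SWNT-SHP1i libraries above it and replicate 6 below. IFI44L had a log2 fold change of 0.39 ± 0.27 (SE; 95% interval -0.18 to 0.97; edgeR adjusted p = 0.997).

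ISG15, a ubiquitin-like protein joined to other proteins during the response, varied between animals of both groups. ISG15 had 24.1, 35.6, 66.6, 17.1 and 51 CPM in SWNT-SHP1i replicates 1, 2, 3, 5 and 6, and 17.4, 27.8, 37.3, 25.8 and 29.7 CPM in SWNT replicates 1 to 5. Replicates 3 and 6 were above the SWNT group and replicate 5 just below it. ISG15 differed by 0.49 ± 0.35 on the log2 scale (SE; 95% interval -0.26 to 1.25), with an edgeR adjusted p = 0.997. Without both replicates 3 and 6 it was -0.10. CMPK2 had 30.2, 36.5, 47.5, 21.6 and 12.1 CPM in SWNT-SHP1i replicates 1, 2, 3, 5 and 6, and 19.5, 20.7, 11.1, 21.2 and 23.3 CPM in SWNT replicates 1 to 5. CMPK2 is a mitochondrial nucleotide kinase whose gene neighbours RSAD2. CMPK2 had a log2 fold change of 0.63 ± 0.34 (SE; 95% interval -0.1 to 1.36; edgeR adjusted p = 0.997). RSAD2 had 13.5, 25.9, 11.7, 11 and 3.33 CPM in SWNT-SHP1i replicates 1, 2, 3, 5 and 6, and 9.1, 12.7, 9.38, 9.34 and 15.3 CPM in SWNT replicates 1 to 5. Viperin, the product of RSAD2, makes a chain-terminating nucleotide, and its gene had a single SWNT-SHP1i library above the SWNT group and replicate 6 below it. RSAD2 differed by 0.23 ± 0.42 on the log2 scale (SE; 95% interval -0.67 to 1.13), with an edgeR adjusted p = 0.997. Without SWNT-SHP1i replicate 2 it was -0.18. RSAD2 and CMPK2 stand 5801 bases apart on opposite strands of chromosome 3, and their highest libraries differed, replicate 2 for RSAD2 and replicate 3 for CMPK2.

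BST2 had 11.8, 21.3, 14.4, 4.77 and 128 CPM in SWNT-SHP1i replicates 1, 2, 3, 5 and 6, and 12.8, 6.87, 11.3, 12.4 and 10.7 CPM in SWNT replicates 1 to 5. Tetherin, the product of BST2, holds budding virions at the cell surface, and its reads in replicate 6 were far above those of any other library. In edgeR BST2 had a log2 fold change of 1.74 ± 0.72 (SE; 95% interval 0.17 to 3.3; unadjusted p = 0.0327, adjusted p = 0.997). Without replicate 6 it was 0.27. BST2 shares 698 of its 1458 exon bases (47.9%) with CCDC194 on the same strand, so its count depends on how shared reads were assigned. IFI6 had 173, 250, 241, 237 and 504 CPM in SWNT-SHP1i replicates 1, 2, 3, 5 and 6, and 163, 164, 284, 263 and 284 CPM in SWNT replicates 1 to 5. The mitochondrial and endoplasmic reticulum protein encoded by IFI6 had replicate 6 well above all others, which overlapped. IFI6 differed by 0.28 ± 0.30 on the log2 scale (SE; 95% interval -0.37 to 0.93), with an edgeR adjusted p = 0.997. Without replicate 6 it was -0.04, and IFI35, which stood at 52.3 CPM in replicate 6 and between 14.5 and 27.4 CPM elsewhere, had 0.29 ± 0.34 (SE) with replicate 6 and -0.14 without. EIF2AK2 had 42, 38.3, 50.1, 37.4 and 18.1 CPM in SWNT-SHP1i replicates 1, 2, 3, 5 and 6, and 31.7, 31.6, 29.4, 42.4 and 38.9 CPM in SWNT replicates 1 to 5. The kinase PKR, encoded by EIF2AK2, shuts off translation in infected cells and was lowest in replicate 6. EIF2AK2 had a log2 fold change of 0.09 ± 0.25 (SE; 95% interval -0.45 to 0.64; edgeR adjusted p = 0.997).

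The members not yet given were ZBP1, XAF1, TRIM25, SAMD9, DDX60 and USP18, with log2 fold changes of 0.34 ± 0.20, 0.43 ± 0.30, 0.20 ± 0.16, 0.27 ± 0.27, 0.33 ± 0.40 and 0.19 ± 0.24 (SE). They spanned, as lowest and highest CPM, ZBP1 17 to 27.5 in SWNT-SHP1i and 14.1 to 20 in SWNT libraries, XAF1 6.8 to 20 in SWNT-SHP1i and 7.06 to 12.8 in SWNT libraries, TRIM25 73 to 94.3 in SWNT-SHP1i and 61.6 to 83.3 in SWNT libraries, SAMD9 11 to 29.1 in SWNT-SHP1i and 14.9 to 24.1 in SWNT libraries, DDX60 2.08 to 10.7 in SWNT-SHP1i and 3.29 to 6.37 in SWNT libraries and USP18 10.9 to 21.2 in SWNT-SHP1i and 10.1 to 15.1 in SWNT libraries. ZBP1 senses Z-form nucleic acid, XAF1 promotes cell death, SAMD9 restricts poxviruses in human cells, TRIM25 adds ubiquitin to RIG-I, and USP18 removes ISG15 and dampens receptor signalling. Groups overlapped in each of them.

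**Figure D4:**
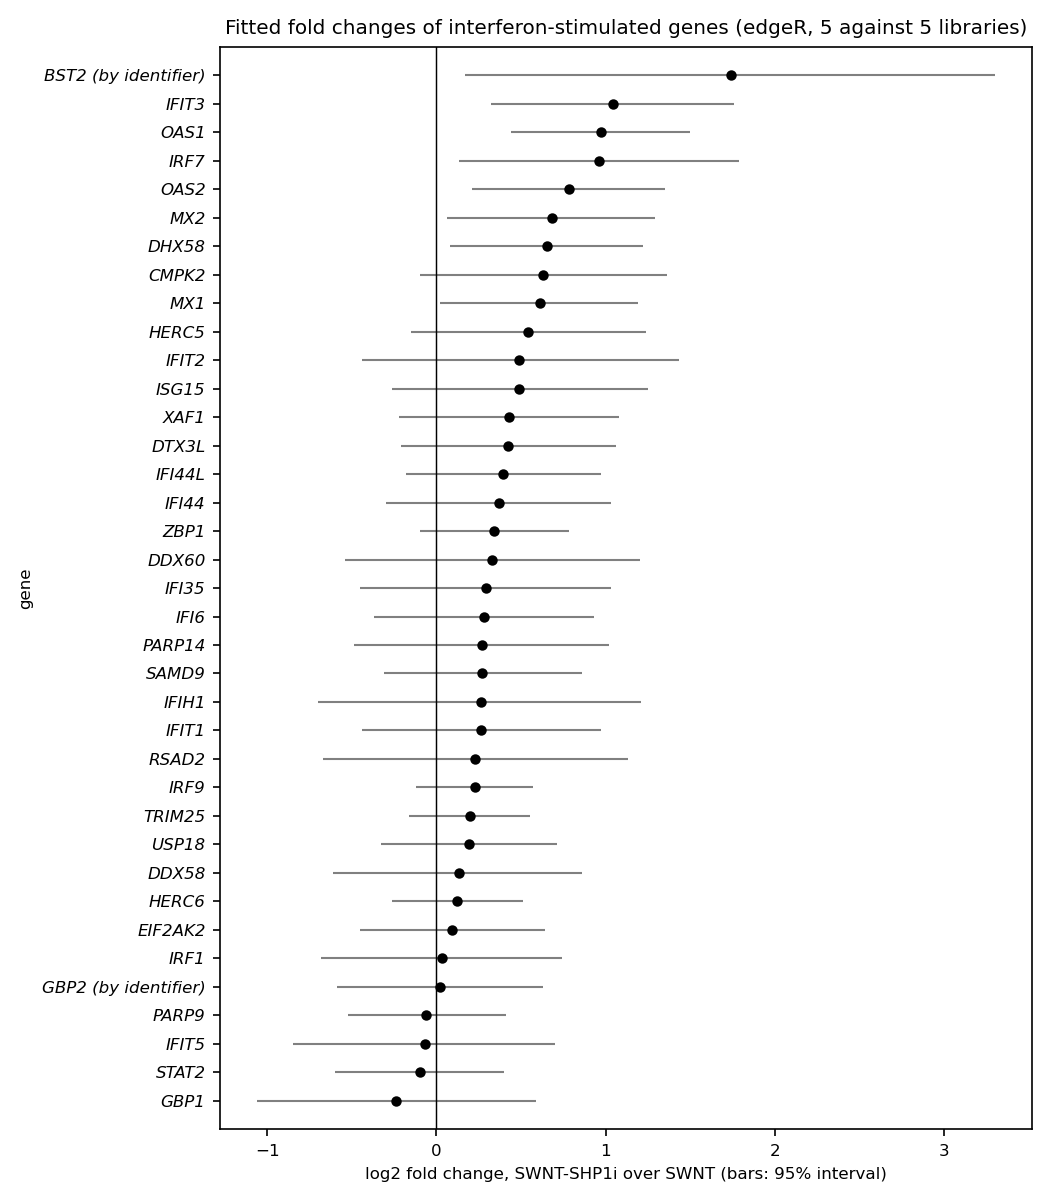
Log2 fold change of SWNT-SHP1i over SWNT (points) with its 95% interval (bars) for 37 genes, 35 found by name and 2 by identifier, sorted by size. Intervals of OAS1, IFIT3, OAS2, IRF7, DHX58, MX2, MX1 and BST2 lie above 0 before adjustment, and 4 of the points lie below 0.

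Levels compared between genes were scaled by exon length (RPKM, from TMM-scaled counts and the summed exon length in the table). IFI6 was the most abundant, with means of 290 RPKM in SWNT-SHP1i and 239 RPKM in SWNT artery. ISG15 followed with 61.3 RPKM in SWNT-SHP1i and 43.5 RPKM in SWNT. OAS1 averaged 45.8 RPKM in SWNT-SHP1i and 23.4 RPKM in SWNT, and MX1 45.5 RPKM in SWNT-SHP1i and 29.9 RPKM in SWNT. Within the IFIT family the order of mean levels in SWNT-SHP1i artery was IFIT1 (14.4 RPKM), IFIT5 (10.8), IFIT3 (10.1) and IFIT2 (3.94), and in SWNT artery it was IFIT1 (12.0), IFIT5 (11.4), IFIT3 (4.92) and IFIT2 (2.80). DDX60, a helicase that assists RIG-I, was the lowest of the tested members at 0.861 RPKM in SWNT-SHP1i and 0.685 RPKM in SWNT.

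In some libraries the values of the set followed exon length, and those of all genes did so too. In SWNT-SHP1i replicates 5 and 6 the correlation was weaker over all genes, but the gap between short and long genes was similar. Over the 35 genes, Spearman's correlation of the gene's centred log2 CPM with its exon length was -0.58 in replicate 6, 0.53 in replicate 5 and -0.14 in replicate 3. In SWNT-SHP1i replicates 1 and 2 it was 0.19 and 0.31, and in SWNT replicates 1 to 5 it was 0.34, 0.40, -0.29, 0.05 and 0.17. Over all 15930 genes it was -0.29, 0.30 and -0.06 in those libraries, and -0.08 to 0.15 in the other 7. These are descriptions across genes of one library, and genes are not independent replicates. In replicate 6, the 17 members shorter than the median member (3447 bases) averaged 0.00 and the 17 longer ones -0.65, while all tested genes below and above that length averaged 0.20 and -0.43. For replicate 5 the shorter and longer members averaged -0.42 and -0.10, and all tested genes -0.08 and 0.23. With a smooth trend on exon length removed from each library, 30 of 35 members were positive, the median log2 fold change was 0.34, and OAS1, IFIT3, OAS2 and IRF7 had 0.90, 0.97, 0.87 and 0.83. The short genes high in replicate 6 include IRF7, IFI35 and ISG15, but IFIT5 and IFIT3 have like exon lengths (2640 and 2284 bases) and stood at -1.91 and 0.85 there. The labels name no RNA integrity value, and the part of RNA quality was not tested.

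**Figure D5:**
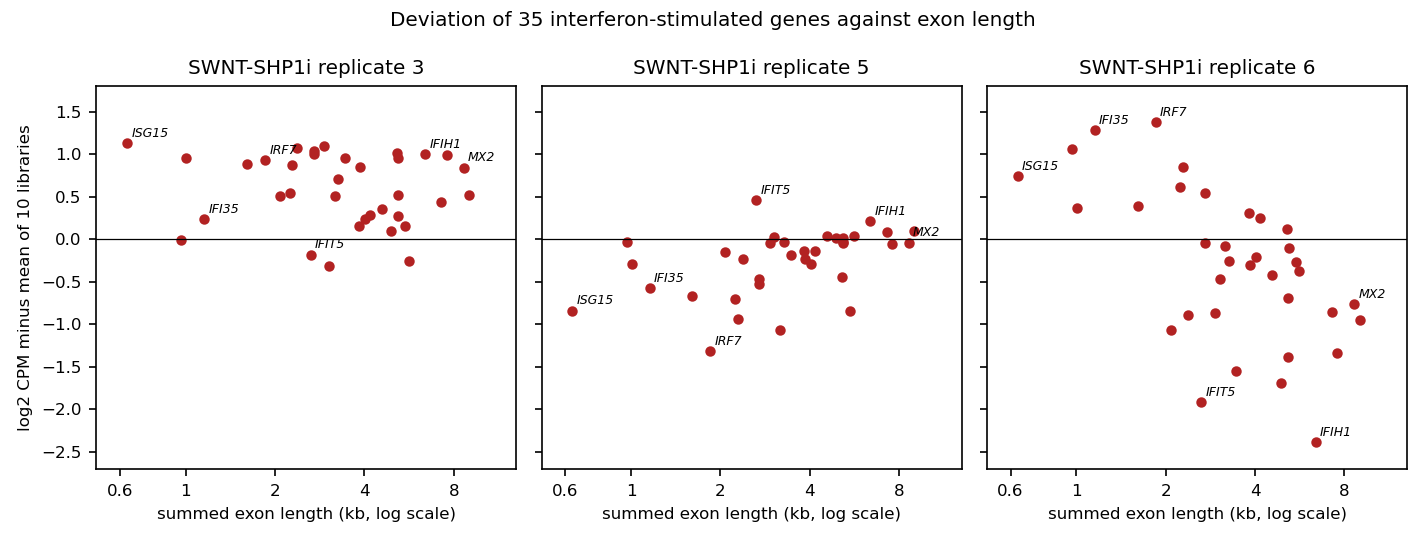
Centred log2 CPM of 35 interferon-stimulated genes in 3 SWNT-SHP1i libraries (vertical axis) against summed exon length in kb (horizontal, log scale). In replicate 6 short genes such as IFI35 lie above 0 and long ones such as IFIH1 far below (-2.38), in replicate 5 the slope is the other way, and in replicate 3 points lie mostly above 0 at all lengths.

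Upstream of these genes, interferon transcripts ranged from 0 to 180 counts per gene and library. The table names 28 interferon genes, of which 7 were tested; 10 of the 15 ligands listed were found, and 3 of these were tested. IFNB1 and IFNK had 0 reads in all 10 libraries. The best counted was IFN-OMEGA-6, with 128, 51, 144, 174 and 29 counts in SWNT-SHP1i replicates 1, 2, 3, 5 and 6, and 123, 135, 145, 98 and 59 counts in SWNT replicates 1 to 5. IFN-ALPHA-15 had 80, 74, 114, 121 and 6 counts in SWNT-SHP1i replicates 1, 2, 3, 5 and 6, and 94, 57, 32, 74 and 70 counts in SWNT replicates 1 to 5. Both type I genes were lowest in replicate 6. IFN-ALPHA-8 had 42, 153, 0, 174 and 55 counts in SWNT-SHP1i replicates 1, 2, 3, 5 and 6, and 180, 109, 157, 86 and 94 counts in SWNT replicates 1 to 5. IFN-OMEGA-3 had 7, 24, 0, 16 and 14 counts in SWNT-SHP1i replicates 1, 2, 3, 5 and 6, and 23, 12, 17, 15 and 17 counts in SWNT replicates 1 to 5. Both were at 0 in replicate 3, as were IFN-OMEGA-2 and IFN-OMEGA-7. Among the 7 tested interferon genes, those with reads in replicate 3 were IFNA1, IFN-ALPHA-15 and IFN-OMEGA-6. IFNA1, another type I gene, had 14, 11, 48, 9 and 10 counts in SWNT-SHP1i replicates 1, 2, 3, 5 and 6, and 7, 3, 9, 6 and 10 counts in SWNT replicates 1 to 5. Replicate 3 was the highest and the groups overlapped (log2 fold change 1.53 ± 0.78, SE; edgeR adjusted p = 0.997), and without replicate 3 the fold change was 0.85. Pig type I interferon genes are similar copies, so reads may have been split between them.

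Interferon gamma, made by T and NK cells and the main inducer of the GBP genes, was counted in SWNT artery alone. IFNG had 0 counts in all 5 SWNT-SHP1i libraries, and 14, 4, 6, 16 and 5 counts in SWNT replicates 1 to 5. Of all 35670 genes, 2, IFNG included, had 0 counts in every SWNT-SHP1i library and at least 4 in every SWNT library. The reverse was seen in 0 genes. The T and NK cell markers CD3D, GZMA, PRF1 and KLRK1 were also at 0 in SWNT-SHP1i replicate 3. Against a floor of 3 counts over the SWNT-SHP1i group, IFNG was 13.6-fold lower there, a figure that takes every count as independent. All counts of OASL, IFN-ALPHA-1 and IFN-DELTA-9 were even, so both reads of a fragment may have been counted. In that case the fold would be smaller, so 13.6 is not a firm lower bound. IFNG failed the filter on low counts and was named because of these values, so they are a description. It was not called when all 24493 genes with any read were fitted (edgeR adjusted p = 0.646). Of 12 T and NK cell markers, 7 had negative and 5 positive fold changes (median -0.29), and their part in the IFNG counts was not tested.

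Receptors and signalling genes were spread in both directions. Of 18 genes, 10 had positive fold changes and 0 passed the test, with a median of 0.13. IFNAR2, a chain of the type I receptor, had the smallest p. IFNAR2 had 34.2, 37.8, 37.9, 24.8 and 51.3 CPM in SWNT-SHP1i replicates 1, 2, 3, 5 and 6, and 26.7, 20.1, 16.4, 23.6 and 24.5 CPM in SWNT replicates 1 to 5. Replicates 1, 2, 3 and 6 were above every SWNT library and replicate 5 was within their range. In edgeR IFNAR2 had a log2 fold change of 0.74 ± 0.22 (SE; 95% interval 0.26 to 1.22; unadjusted p = 0.00582, adjusted p = 0.997). PTPN6 had 30.7, 39.8, 28.7, 12 and 123 CPM in SWNT-SHP1i replicates 1, 2, 3, 5 and 6, and 28.5, 13.1, 13.6, 18.5 and 19 CPM in SWNT replicates 1 to 5. PTPN6 was far highest in replicate 6, which was also highest in macrophage markers. In edgeR PTPN6 had a log2 fold change of 1.34 ± 0.51 (SE; 95% interval 0.23 to 2.44; unadjusted p = 0.0216, adjusted p = 0.997). Without replicate 6 the fold change of PTPN6 was 0.58. IFNGR2 followed by p, with a log2 fold change of 0.29 ± 0.22 (SE; edgeR adjusted p = 0.997).

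Of 23 nucleic acid sensors and adaptors listed, 19 were tested, and 15 of them had positive fold changes (median 0.54, 0 called). TLR9, the endosomal DNA sensor (1.37 ± 0.49, SE), IRF5, a factor downstream of Toll-like receptors (1.15 ± 0.41), and the adaptor MYD88 (0.57 ± 0.21) had the smallest p. Among further interferon-induced genes, 42 of 62 were found and 40 tested, of which 33 had positive fold changes and 0 were called, with a median of 0.26. IFI30, a lysosomal thiol reductase (1.49 ± 0.52), SIGLEC1, a sialic acid receptor of macrophages (0.93 ± 0.38), and IDO1, which degrades tryptophan (1.76 ± 0.91), had the smallest p. Without replicate 6 the fold changes were 0.67 for IFI30 and 0.73 for IRF5, and without replicate 3 that of IDO1 was 0.56. SIGLEC1, IFI30, TLR9 and IRF5 are expressed mainly by leukocytes, whose markers are given above.

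Outside the set, the genes whose log2 CPM was most like the mean centred level of the 35 members over the 10 libraries were EZR, NIF3L1, PSMA3, MORF4L2, GDAP2, PIP4K2A, COMMD8, ACOT13, PARP3 and SEC14L1, among 8731 named genes with a mean of at least 10 CPM. Pearson's r ran from 0.811 to 0.860. These are the highest of many correlations, and they share the libraries and their depth. Within the set, MX2 (0.91), IFI44 (0.89), CMPK2 (0.87) and MX1 (0.85) followed the mean of the other members most closely by Pearson's r over the same libraries, and IFI35 (-0.19) and IFI6 (-0.26) least.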

How the data were processed

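Carotid artery RNA was sequenced, and the deposited table holds raw counts per gene. The submitters' processing notes name Trim Galore, STAR, DESeq2 and the pig build Sscrofa11.1. The counting tool and its strand setting are unstated. From the counts, edgeR 4.0.16 (R 4.3.3; TMM scaling, filterByExpr with a minimum count of 10, robust quasi-likelihood fit) compared SWNT-SHP1i with SWNT over 15930 genes, which held at least 99.89% of each library's counts, with Benjamini-Hochberg adjustment over all of them and a threshold of 0.05. Centred levels are log2 CPM with a prior count of 2. Standard errors were taken from the fold change and its F statistic. The edgeR p-values set the difference between the groups against the spread between libraries, 5 per group, with that spread moderated over all genes tested. The 10 libraries were checked for duplicates and none were found, and 0 columns belonged to other samples.

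The members, gene lists and marker lists were chosen with earlier results of these data known. Values in every library are given for up to 3 members per family, the 6 members with the smallest p, the 4 with the most negative fold change, and PTPN6, and the other pathway lists are named by their 3 smallest p. Further members, IFNG, IFN-OMEGA-6 and IFN-ALPHA-15 were added after their values were seen. Alternatives used DESeq2 1.42.0, limma-voom (limma 3.58.1), other scalings and filters, and libraries left out.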

Additional observations from a re-analysis of the deposited data

Results flagged for a closer look

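In 7 of 76 groups of 5 libraries (37 genes and the level of the set, in each of the 2 treatment groups), 1 library stood apart from the other 4 by Dixon's test on log2 CPM at the 95% level, which chance alone reaches in about 1 in 20 groups. SWNT-SHP1i replicate 6 was the low library in 3 of them: IFIH1 at 2.50 CPM, DDX58 at 9.48 CPM and EIF2AK2 at 18.1 CPM. SWNT-SHP1i replicate 5 was low in IFIT3 at 7.91 CPM, where the other 4 SWNT-SHP1i libraries lay between 26.0 and 27.8 CPM. In the SWNT group, replicate 2 was low in BST2 at 6.87 CPM, replicate 3 in CMPK2 at 11.1 CPM, and replicate 4 in IRF9 at 57.8 CPM. That all 7 were low depends on the log scale. On CPM, a choice made after seeing the data, the test gave 5 such libraries in these genes, 4 high and 1 low: SWNT-SHP1i replicate 6 was high in BST2 (128 CPM) and IFI6 (504 CPM), replicate 3 was high in USP18 (21.2 CPM) and GBP2 (30.3 CPM), and replicate 5 was low in IFIT3, the one found on both scales.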

How the results depend on the processing

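Every alternative run called 0 genes and 0 members, with edgeR, DESeq2 and limma-voom alike, also with edgeR at an adjusted p threshold of 0.1. The smallest adjusted p of any member was 0.142 (OAS1, DESeq2), and with edgeR it was 0.277 (OAS1 and IFIT3, without SWNT-SHP1i replicate 5). The count of positive members stayed between 29 and 33 and their median log2 fold change between 0.21 and 0.45 when 1 library was left out at a time. By scaling or tool the median ran from 0.27 (upper quartile) to 0.39 (limma-voom), and within animals numbered B9 it was 0.22 with 29 positive. No paired analysis was possible because the replicate numbers follow record order and the labels pair no animals. Of 37 members, 24 kept their sign in all 21 settings. Signs turned as follows, and the cause was not tested. Without SWNT-SHP1i replicates 3 and 6, ISG15 was -0.10, IFIT5 0.32, IFI6 -0.07, IFI35 -0.32, STAT2 0.08, IRF1 -0.39, PARP9 0.16 and GBP2 -0.36. With limma-voom, IFIT5 was 0.22, IFI35 -0.12, IRF1 -0.03, PARP9 0.22 and GBP2 -0.24. Within B9 animals, DDX58 was -0.06, USP18 -0.07, PARP9 0.07, EIF2AK2 -0.09 and GBP2 -0.21. With the animal number range as a term GBP2 was -0.05, and with the length trend removed, a choice made after seeing the data, IRF1 was -0.04. Leaving out 1 library at a time, IFIT5 ran from -0.22 to 0.17, RSAD2 from -0.18 to 0.48, IFI6 from -0.04 to 0.40, IFI35 from -0.14 to 0.44, STAT2 from -0.23 to 0.07, IRF1 from -0.13 to 0.25, USP18 from 0.00 to 0.27, GBP1 from -0.42 to 0.12, PARP9 from -0.15 to 0.04, EIF2AK2 from -0.04 to 0.27 and GBP2 from -0.27 to 0.14. Adding GBP2 and BST2 by identifier, also chosen after seeing the data, gave 33 of 37 positive. A search for promoter motifs was not run. Depth limits OASL and the interferon genes, which had few counts.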
